A study of Xenopus laevis with 8 samples.

Results

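The change between a late blastula and a mid-gastrula was followed in *Xenopus laevis* embryos that had received wild-type maternal *wnt11b*. The libraries were chosen by their labels: the 2 libraries of +/Z embryos at Nieuwkoop and Faber stage 10.5 (mid-gastrula) were set against the 2 libraries of +/Z embryos at stage 9 (late blastula), 4 of the 8 libraries sequenced. The +/Z embryos came from eggs of wild-type females fertilised with *wnt11b* mutant sperm, so they carried 1 wild-type and 1 mutant copy of *wnt11b.L*, the mutant copy having a small frameshifting deletion in its first coding exon. The other 4 libraries held M/Z embryos of the same stages, from eggs of homozygous *wnt11b* mutant F2 females fertilised with the same kind of sperm, which lack both the maternal and the zygotic wild-type gene. Each library was made from a pool of 3 whole embryos. The females and clutches behind the pools are not named in the sources used here, so p-values measure the spread between pools, which may share a mother.

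The frog egg is loaded with maternal RNA, and the embryo divides rapidly with little transcription until the mid-blastula transition, shortly before stage 9. Transcription of the embryo's own genome then begins, maternal RNAs are degraded, and cells acquire germ-layer fates: vegetal cells release Nodal ligands that induce endoderm and mesoderm, the dorsal organiser secretes antagonists of BMP and Wnt, and BMP directs ventral and epidermal fates. By stage 10.5 the blastopore lip has formed and mesendoderm is moving inwards. *X. laevis* is allotetraploid, and many genes exist as a pair of homeologs on the long (.L) and short (.S) subgenome.

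Replicates 1 and 2 held 30840506 and 25708995 counts in total at stage 10.5, against 29150030 and 24720921 at stage 9, and 3 counts, taken as the detection floor, corresponded to 0.115 and 0.136 CPM at stage 10.5 and to 0.0967 and 0.115 CPM at stage 9. The floor covers counting error only. Of 49086 genes listed, 25448 passed *edgeR*'s filter on low counts and were tested in a fit of all 8 libraries. The replicates of stage 10.5 differed more from each other than those of stage 9: the median absolute difference in log2(CPM + 0.5) was 0.318 at stage 10.5 and 0.190 at stage 9, and 6.95% of genes at stage 10.5 and 1.19% at stage 9 differed by more than 2-fold between replicates. *RSEM*, used by the authors, divides reads between near-identical copies, so values of single homeologs and of tandem copies such as those of *nodal5* carry that uncertainty. The libraries were checked for markers of organs that form later: 53 such entries (crystallins, globins, liver, pancreas, muscle and neuronal genes) together took 0.00238% and 0.00196% of counts at stage 10.5 and 0.00327% and 0.00282% at stage 9, and 32 to 38 of them were at 0 in each library.

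About as many genes rose as fell between the stages. With the threshold set at an adjusted p of 0.05 (Benjamini-Hochberg adjustment of *edgeR*'s quasi-likelihood test), 11833 of the 25448 genes tested changed (46.5%), of which 5928 were higher at stage 10.5 (23.3%) and 5905 were lower (23.2%). Changes of at least 2-fold were found for 8595 genes (33.8%), with 4292 higher (16.9%) and 4303 lower (16.9%). The median log2 fold change of all genes tested was 0.01. Without stage 9 replicate 1 or 2, 7884 and 7625 genes passed. In 18898 genes (74.3%) the CPM values of the stages did not overlap, which with 2 libraries a stage is also frequent in genes without a change. The balance of rises and falls rests on the scaling of the libraries, since no added RNA standard is named in the sources used here: with library totals in place of TMM factors, 4237 genes were higher and 8085 lower (34.4% higher), around a median of -0.29 on the log2 scale, and with upper-quartile factors 58.5% of the calls were higher, around a median of 0.17. All values are therefore levels relative to the rest of the RNA. In whole embryos, fewer cells of a type and less RNA per cell cannot be told apart, and because the library kit captures polyadenylated RNA, neither can the amount of an RNA and the length of its poly(A) tail.

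The large changes were mostly rises. A log2 fold change of at least 3 was found for 1733 genes that were higher and 438 that were lower at stage 10.5, and a log2 fold change of at least 5 for 664 higher and 112 lower. Rises also outnumbered falls at these sizes with library totals (1462 and 636 at a log2 fold change of at least 3, 557 and 126 at 5) and with upper-quartile factors (1893 and 347, 719 and 100). Genes that rose held 52.9% and 54.8% of all counts at stage 10.5 and 28% and 27.6% at stage 9. Genes that fell held 9.90% and 10.1% at stage 10.5 and 28.8% and 29.3% at stage 9. These classes were formed from the same libraries, so the shares are a description. When the classes were formed with library totals, the mean share of genes that rose was 38.1% at stage 10.5 and 14.9% at stage 9, and that of genes that fell was 16.8% and 40.0%.

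**Figure D1:**
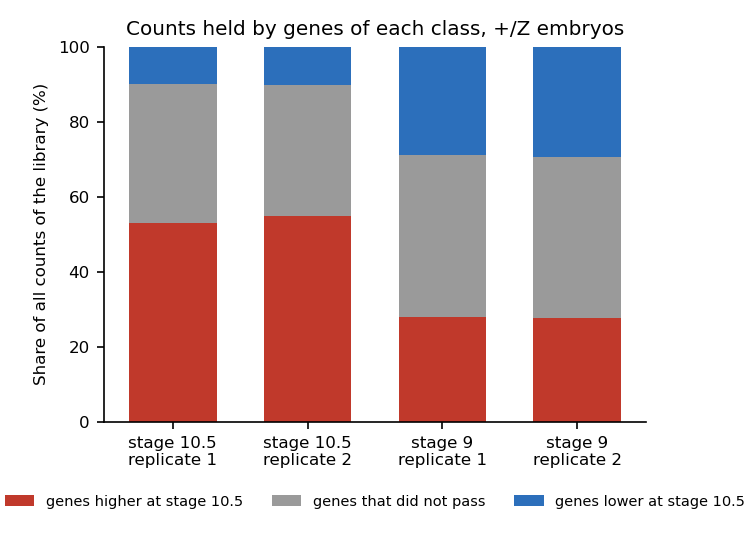
Share of all counts (%, y axis) in each of the 4 +/Z libraries (x axis) held by genes that were higher at stage 10.5, lower at stage 10.5 or did not pass the threshold. Genes that rose held 52.9% and 54.8% of the counts at stage 10.5 and 28% and 27.6% at stage 9.

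Over all genes, the rises with the smallest p among well-expressed genes were those of *mixer.S*, a homeobox factor of mesendoderm, *top2b.L*, a DNA topoisomerase, *ccnb3.S*, a B-type cyclin, *march8.L*, a ubiquitin ligase of membranes, and LOC108704926. *top2b.L* was at 229 and 164 CPM at stage 10.5 and at 3.45 and 2.94 CPM at stage 9. Its log2 fold change was 5.94 (*edgeR*, standard error or SE 0.29, adjusted p = 1.08e-05). *march8.L* was at 78.9 and 82.9 CPM at stage 10.5 and at 4.25 and 4.96 CPM at stage 9. The falls with the smallest p were those of XB5759208.L, *c10orf2.L*, the mitochondrial DNA helicase, *tfrc.L*, the transferrin receptor, *pif1.L*, a DNA helicase, and *gtf3c2.L*, a subunit of the RNA polymerase III factor TFIIIC. *pif1.L* was at 21.4 and 22.3 CPM at stage 10.5 and at 153 and 174 CPM at stage 9. Its log2 fold change was -2.90 (*edgeR*, SE 0.22, adjusted p = 2.7e-05). *gs17.L*, long used as a marker of transcription after the mid-blastula transition, rose to 636 and 833 CPM at stage 10.5, against 78.4 and 65.9 CPM at stage 9, and *gs17.S* to 66.9 and 65.8 CPM, against 14.5 and 14 CPM. In each of these genes the stages were well separated and the replicates of a stage lay within a 1.5-fold range.

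Genes with 3 or fewer counts in both libraries of stage 9 and at least 30 counts in both libraries of stage 10.5 numbered 163, of which 44 were LOC identifiers without a symbol. The reverse, loss to 3 or fewer counts from at least 30, was met by 15 genes, of which 6 were such identifiers. These genes were picked by their counts, so no test is attached. *darmin.L*, a secreted peptidase of endoderm, had 489 and 209 counts at stage 10.5 and 0 and 0 at stage 9, which put it at least 276-fold higher against a floor of 3 counts over both libraries. *bmp7.1.L*, a BMP ligand, had 341 and 184 counts and 0 and 0, at least 208-fold higher. Both copies of *tmem150b* were at least 229-fold higher, with 316 and 268 counts for the .L copy and 323 and 257 for the .S copy at stage 10.5, against 0 in all stage 9 libraries. *dmbx1.S*, a homeobox gene of the anterior neural plate, had 332 and 151 counts at stage 10.5 against 0 and 0. *lef1.L*, the Wnt-responsive partner of β-catenin, had 693 and 457 counts at stage 10.5 and 1 and 0 at stage 9. Another gene of the same family went the other way: *tcf7l2.L* had 3 and 0 counts at stage 10.5 and 58 and 31 at stage 9. *msmo1.L*, an enzyme of cholesterol synthesis, had 2 and 3 counts at stage 10.5 and 104 and 120 at stage 9. Replicate 1 was higher than replicate 2 at stage 10.5 in several of these genes, as in *darmin.L*, but both lay far above stage 9.

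Gene lists for the germ layers and their signals, written by symbol, held 274 copies that were tested (288 listed). Of these, 179 were higher at stage 10.5 (65.3%, against 23.3% of all genes tested), 31 were lower (11.3%, against 23.2%) and 64 did not pass. Their median log2 fold change was 2.24, against 0.01 for all genes tested. These lists and those below were chosen with earlier results of these data known, so their shares beside those of all genes are a description. The order by share of members that rose was endoderm, mesoderm, ventral and BMP genes, epidermis, organiser, pluripotency, neural genes and Nodal signalling.

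**Figure D2:**
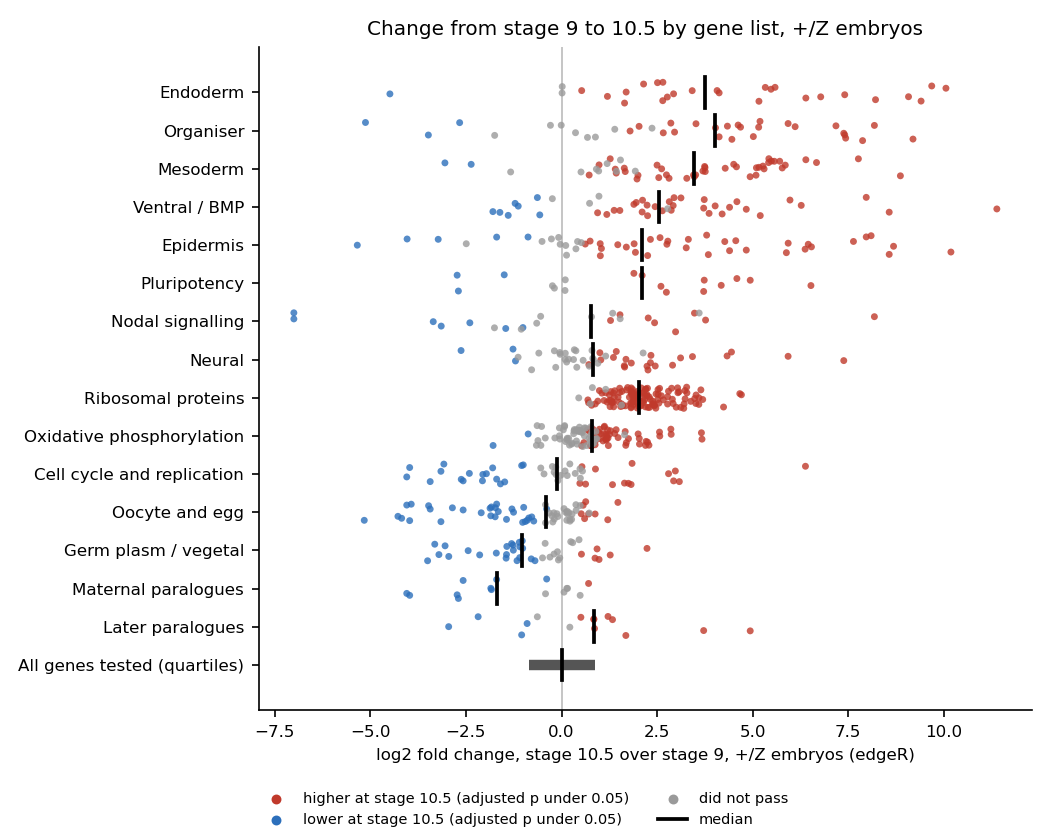
log2 fold change at stage 10.5 over stage 9 in +/Z embryos (x axis, *edgeR*) for each tested member of 15 gene lists (y axis). Points are gene copies, coloured by whether they were higher, lower or did not pass at an adjusted p under 0.05, black ticks are list medians, and the bottom bar spans the quartiles of all 25448 genes tested (-0.85 to 0.87). The median was 3.74 for endoderm, 4.03 for organiser, 2.03 for ribosomal proteins and -1.02 for germ plasm and vegetal RNAs. The organiser median was 3.75 where copies without counts at a stage were set at the floor of 3 counts there.

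Of 14 tested copies of Nodal and related TGFβ-family ligands, 4 rose, 4 fell and 6 did not pass, shares near those of all genes tested (23.3% higher and 23.2% lower). *nodal1.L*, a zygotic mesendoderm inducer, was at 13.1 and 18.9 CPM at stage 10.5 and at 2.93 and 2.98 CPM at stage 9, a log2 fold change of 2.43 (*edgeR*, SE 0.29, adjusted p = 0.000232). *nodal2.L* was at 11.3 and 23.1 CPM at stage 10.5 and at 2.06 and 0.99 CPM at stage 9, and *gdf3.S*, a TGFβ-family ligand, at 204 and 259 CPM against 55.4 and 40.7 CPM. The tested copies of the earlier-acting *nodal5* and *nodal6* genes all had negative log2 fold changes, but not all of them passed. *nodal5.2.L* did not pass (log2 fold change -1.05, SE 0.43, *edgeR*, adjusted p = 0.0699). *nodal5.3.L* was at 0.57 and 0.45 CPM at stage 10.5 and at 4.54 and 4.66 CPM at stage 9, a log2 fold change of -3.15 (*edgeR*, SE 0.41, adjusted p = 0.000331). *nodal6.L* was at 0.92 and 2.04 CPM against 3.93 and 4.16 CPM and passed, but not in 3 of the 4 fits that left out 1 +/Z library. *nodal6.S*, with 0 and 1.81 CPM at stage 10.5 and 2.90 and 3.09 CPM at stage 9, did not pass (adjusted p = 0.183, *edgeR*). The *nodal5.6.L* and *nodal5.7.L* entries had the same counts, 0 and 0 at stage 10.5 and 15 and 14 at stage 9, at least 8.15-fold lower at stage 10.5. Reads of these tandem copies may have been shared out evenly, and neither passed in any fit that left out 1 +/Z library.

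Among the secreted inhibitors and co-receptors, *cer1.S* (Cerberus, which binds Nodal, BMP and Wnt ligands) was at 432 and 404 CPM at stage 10.5 and at 1.8 and 1.03 CPM at stage 9, a log2 fold change of 8.18 (*edgeR*, SE 0.81, adjusted p = 9.41e-05). Both copies of *lefty*, the feedback inhibitor of Nodal, rose, to 62.1 and 65 CPM for *lefty.L* at stage 10.5 against 9.22 and 6.83 CPM at stage 9. Both copies of *dand5* (Coco), a maternal antagonist of Nodal and BMP in *Xenopus*, fell. *dand5.L* was at 23.5 and 27.1 CPM at stage 10.5 and at 291 and 228 CPM at stage 9, a log2 fold change of -3.36 (*edgeR*, SE 0.28, adjusted p = 4.71e-05). The EGF-CFC co-receptors of Nodal split by gene: *tdgf1.3.L* was higher at stage 10.5, with 298 and 337 CPM against 101 and 119 CPM, and *tdgf1.1.L* was lower, with 65.1 and 58.1 CPM against 115 and 133 CPM.

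Of the 28 endodermal transcription factor copies, 25 rose (89.3%, against 23.3% of all genes tested), 1 fell and 2 did not pass. Their median log2 fold change was 3.74. *mixer.L*, which acts downstream of Nodal, was at 456 and 419 CPM at stage 10.5 and at 6.48 and 3.89 CPM at stage 9, a log2 fold change of 6.39 (*edgeR*, SE 0.32, adjusted p = 1.08e-05), and *mixer.S* was at 294 and 283 CPM against 8.44 and 7.64 CPM. Of the GATA factors of endoderm, *gata4* was barely detected at stage 9 in either copy, while *gata6.S* was at 5.61 and 3.40 CPM there. The homeolog *gata6.L* was lower at stage 9, at 0.774 and 0.115 CPM. *gata4.L* was at 93.2 and 55.3 CPM at stage 10.5 and at 0.0322 and 0.191 CPM at stage 9, and *gata4.S* at 109 and 68.5 CPM against 0.161 and 0.0382 CPM, a log2 fold change of 9.68 for the .S copy (*edgeR*, SE 0.50, adjusted p = 1.08e-05). The *sox17* genes, the core endoderm factors, already had RNA at stage 9: *sox17a.L* was at 107 and 136 CPM at stage 10.5 and at 27.3 and 15.3 CPM at stage 9, and *sox17a.S* at 109 and 110 CPM against 20.8 and 14.1 CPM. The smaller changes were in the Mix-family *bix* genes. *bix1.1.L* and *bix1.1.S* had log2 fold changes of 0.01 and 0.02 and did not pass (adjusted p = 0.958 and 0.962, *edgeR*), with overlapping stages. The member that fell was *sox7.L*, at 3.36 and 2.63 CPM at stage 10.5 and 60.6 and 74.6 CPM at stage 9. Its homeolog *sox7.S* rose to 7.07 and 4.22 CPM, against 0.0967 and 0.153 CPM.

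The mesodermal list held 52 tested copies, of which 42 rose (80.8%, against 23.3% of all genes tested), 2 fell and 8 did not pass. The median log2 fold change was 3.46. All 7 T-box copies rose. *tbxt.S* (Brachyury, listed as *t.S*), required for posterior mesoderm and notochord, was at 457 and 317 CPM at stage 10.5 and at 8.48 and 6.30 CPM at stage 9, a log2 fold change of 5.71 (*edgeR*, SE 0.37, adjusted p = 1.75e-05). *tbxt.L* was at 199 and 111 CPM against 1.19 and 1.87 CPM. *eomes.S* was at 204 and 209 CPM at stage 10.5 and at 20.7 and 17 CPM at stage 9. The smallest T-box changes were those of *vegt*, a T-box factor supplied to the vegetal egg that is also transcribed in the embryo: *vegt.L* was at 675 and 710 CPM against 373 and 328 CPM, and *vegt.S* at 761 and 804 CPM against 321 and 327 CPM. Of the ligands and receptors, *wnt8a.L*, the ventrolateral Wnt ligand, was at 112 and 120 CPM at stage 10.5 and at 9.41 and 7.75 CPM at stage 9. *pcdh8.2.L*, a protocadherin of the paraxial mesoderm, was at 339 and 274 CPM against 1.00 and 0.27 CPM, the largest log2 fold change of the list, 8.86 (*edgeR*, SE 0.60, adjusted p = 1.98e-05). The falls were *pcdh8.S* and *myod1.L*. *myod1.L*, a muscle determination gene, was at 2.90 and 2.00 CPM at stage 10.5 and at 14.1 and 11.2 CPM at stage 9, while *myod1.S* rose to 7.15 and 6.35 CPM, against 1.42 and 0.95 CPM.

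Of 35 organiser copies, 24 rose (68.6%, against 23.3% of all genes tested), 3 fell and 8 did not pass (median log2 fold change 4.03). That median was 3.75 where copies without counts at a stage were set at the floor of 3 counts there. Among the secreted antagonists, *chrd.L* (Chordin, a BMP antagonist) was at 245 and 257 CPM at stage 10.5 and at 13.3 and 7.1 CPM at stage 9, a log2 fold change of 4.62 (*edgeR*, SE 0.76, adjusted p = 0.00108). *frzb.S*, a secreted Wnt antagonist, was at 270 and 356 CPM against 1.68 and 0.95 CPM, a log2 fold change of 7.87 (*edgeR*, SE 0.43, adjusted p = 1.31e-05). *nog.S* (Noggin) was at 3.02 and 3.36 CPM at stage 10.5 and at 2.03 and 1.95 CPM at stage 9 and did not pass (adjusted p = 0.252, *edgeR*), while *nog.L* rose. Among the transcription factors, *gsc.L* (Goosecoid) was at 47.8 and 81.5 CPM at stage 10.5 and at 2.55 and 1.03 CPM at stage 9, *gsc.S* at 39.3 and 71.8 CPM against 5.74 and 3.93 CPM, and *foxa4.L* and *foxa4.S* rose by log2 fold changes of 4.03 and 4.34. The *sia* genes, the first targets of maternal β-catenin, were not among the rises. *sia1.L* was at 6.38 and 10.3 CPM at stage 10.5 and at 12.1 and 8.29 CPM at stage 9, so its stages overlapped (log2 fold change -0.29, SE 0.38, *edgeR*, adjusted p = 0.553). *sia2.S* had 5 and 0 counts at stage 10.5 and 144 and 72 at stage 9, and fell by 5.13 on the log2 scale. *sia1.S* had 0.0764 and 0.0907 CPM against 0.838 and 1.11 CPM, a fall that did not pass in any fit that left out 1 +/Z library.

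**Figure D3:**
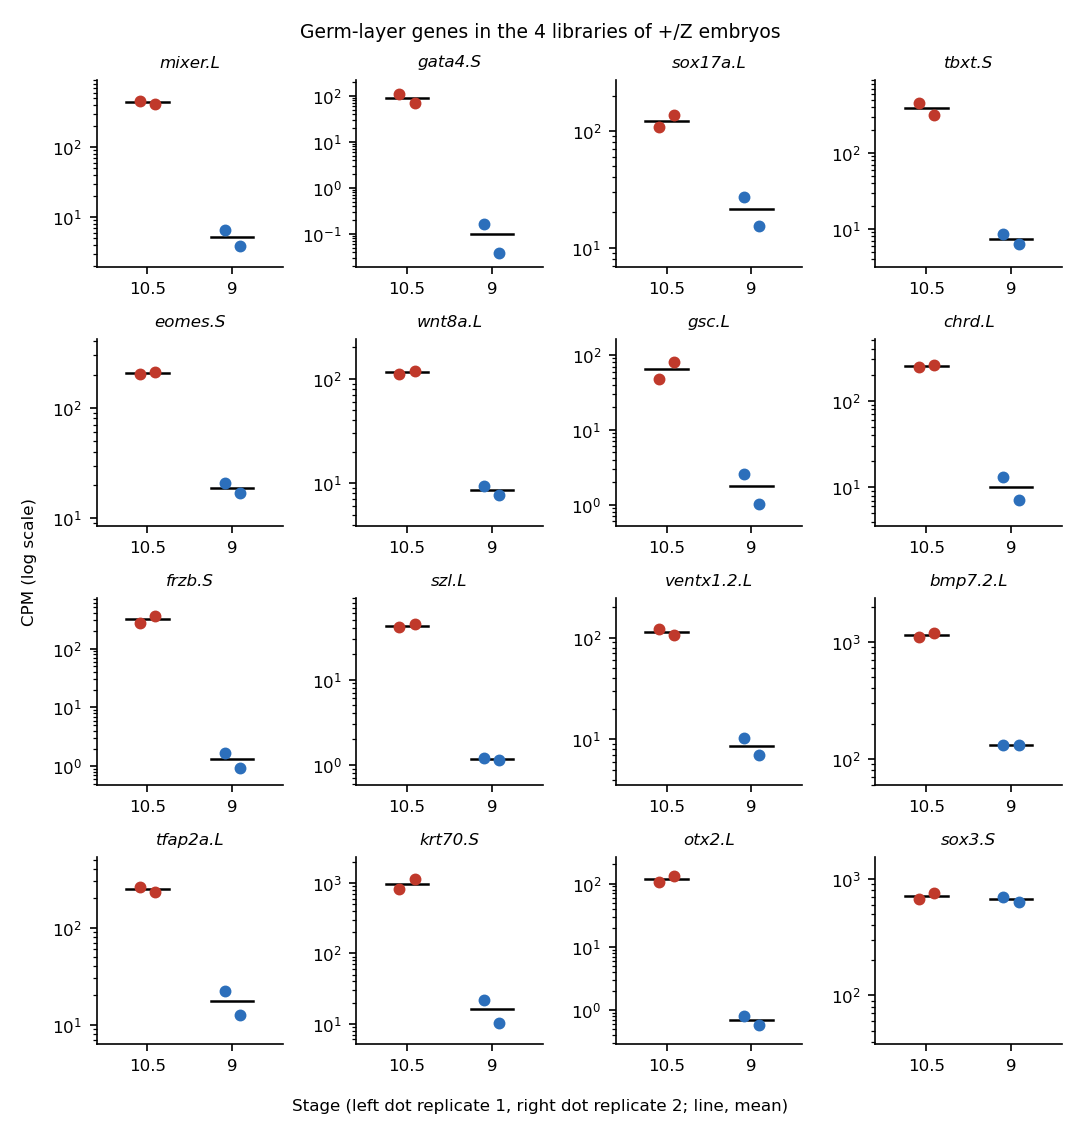
CPM (log-scaled y axis, a separate range per panel) of 16 germ-layer genes in the libraries of +/Z embryos at stage 10.5 (left of each panel) and stage 9 (right). Dots are replicates 1 and 2 and lines are means. In 15 panels both stage 10.5 libraries lie above both stage 9 libraries, as for *mixer.L* (456 and 419 CPM at stage 10.5, 6.48 and 3.89 CPM at stage 9), and in *sox3.S* the stages overlap.

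Copies of BMP ligands, their targets and feedback inhibitors numbered 42. Of these, 31 rose (73.8%, against 23.3% of all genes tested), 7 fell and 4 did not pass (median log2 fold change 2.54). *bmp4.L*, the main ventralising ligand, was at 44.6 and 39.6 CPM at stage 10.5 and at 9.96 and 7.87 CPM at stage 9, and *bmp4.S* at 63.1 and 52.9 CPM against 12.9 and 11.5 CPM. *bmp2* went the other way in both copies: *bmp2.S* was at 11.8 and 15.0 CPM at stage 10.5 and at 41.1 and 52.0 CPM at stage 9, a log2 fold change of -1.8 (*edgeR*, SE 0.35, adjusted p = 0.00275). *szl.L* (Sizzled, a secreted BMP feedback inhibitor) was at 41.1 and 45.0 CPM at stage 10.5 and at 1.19 and 1.15 CPM at stage 9, a log2 fold change of 5.2 (*edgeR*, SE 0.22, adjusted p = 1.08e-05). The *ventx* homeobox repressors, direct targets of BMP, rose in 8 of 9 copies, as in *ventx1.2.L*, at 122 and 107 CPM against 10.2 and 7.03 CPM, and *ventx2.1.L*, at 333 and 370 CPM against 88.5 and 74.5 CPM. *ventx3.2.L* did not pass (adjusted p = 0.117, *edgeR*). The *id* inhibitors of bHLH factors split by gene. *id3.L* was at 595 and 469 CPM at stage 10.5 and at 82.1 and 68.8 CPM at stage 9, while *id2.L* was at 62.9 and 62.2 CPM against 146 and 144 CPM, and both *id2* copies fell.

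In the epidermal list 33 of 48 tested copies rose (68.8%, against 23.3% of all genes tested), 5 fell and 10 did not pass. The list had a median log2 fold change of 2.09. None of its 17 keratin and adhesion copies fell, and 14 rose. *krt70.S* (listed as *krt.S*) was at 809 and 1155 CPM at stage 10.5 and at 22 and 10.2 CPM at stage 9, a log2 fold change of 5.93 (*edgeR*, SE 0.45, adjusted p = 2.86e-05). *upk3b.L*, a uroplakin of superficial cells, was at 151 and 105.3 CPM against 1.97 and 0.92 CPM. Among the transcription factors, *tfap2a.L*, an activator of epidermal genes, was at 265 and 235 CPM at stage 10.5 and at 22.3 and 12.48 CPM at stage 9, and *dlx5.L* at 45.7 and 49.2 CPM against 0.87 and 0.73 CPM. *foxi2*, whose maternal RNA lies in the animal pole region of the egg, fell in both copies: *foxi2.L* was at 11.5 and 17.5 CPM at stage 10.5 and at 254 and 223 CPM at stage 9, and *foxi2.S* at 3.40 and 5.4 CPM against 180 and 176 CPM. Of other *foxi* genes, *foxi1.L*, at 20.4 and 21.7 CPM against 13.9 and 15.6 CPM, did not pass (adjusted p = 0.341, *edgeR*). Both copies of *foxi4.2* rose, *foxi4.2.S* to 345 and 353 CPM, against 119 and 64.0 CPM. The Kruppel-like *klf5.S*, *grhl1.L* and *tp63.S* were the other falls.

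Of 47 neural copies 21 rose (44.7%, against 23.3% of all genes tested), 3 fell (6.38%, against 23.2%) and 23 did not pass, around a median log2 fold change of 0.83. *otx2.L*, a factor of the anterior neural plate and the organiser, was at 104 and 129 CPM at stage 10.5 and at 0.81 and 0.57 CPM at stage 9, a log2 fold change of 7.38 (*edgeR*, SE 0.50, adjusted p = 1.98e-05). *sall1.L*, a zinc-finger factor, was at 472 and 341 CPM against 44.3 and 31.4 CPM. *sox3*, a maternal and zygotic SoxB1 factor of ectoderm, overlapped between the stages or nearly so. *sox3.S* was at 669 and 760 CPM at stage 10.5 and at 701 and 635 CPM at stage 9 (log2 fold change 0.10, SE 0.14, *edgeR*, adjusted p = 0.578), and *sox3.L* at 273 and 319 CPM against 354 and 320 CPM. Geminin, an inhibitor of replication licensing that also acts in neural induction, did not pass in either copy, with adjusted p of 0.0644 for *gmnn.L* (log2 fold change -0.59) and 0.28 for *gmnn.S* (0.31) from *edgeR*. *sox3.L* passed as a fall with library totals, and *gmnn.L* in 4 alternative fits.

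The *pou5f3* genes, the amphibian relatives of mammalian Oct4, moved in opposite directions. *pou5f3.1.L* was at 816 and 579 CPM at stage 10.5 and at 28.1 and 17.4 CPM at stage 9, a log2 fold change of 4.94 (*edgeR*, SE 0.36, adjusted p = 2.59e-05). *pou5f3.2.L* was at 2547 and 2197 CPM against 433 and 276 CPM. The maternally supplied *pou5f3.3.L* was at 73.6 and 88.6 CPM at stage 10.5 and at 635 and 418 CPM at stage 9, a log2 fold change of -2.70 (*edgeR*, SE 0.34, adjusted p = 0.000268). The homeologs of all 3 genes changed in the same direction as these .L copies. *pou5f3.1.S* stood out by its replicates, with 246 and 89.6 CPM at stage 10.5 and 19.9 and 5.57 CPM at stage 9. *lin28a.L*, an RNA-binding inhibitor of let-7 maturation, rose to 198 and 124 CPM, against 2.48 and 0.95 CPM, while *lin28b.S* fell and *lin28b.L* did not pass (adjusted p = 0.368, *edgeR*).

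Maternal RNAs fell in part. Of 61 tested copies of oocyte and egg genes, 30 fell (49.2%, against 23.2% of all genes tested), 8 rose and 23 did not pass, with a median log2 fold change of -0.42. *cpeb1.L*, which controls the polyadenylation and translation of stored maternal mRNA, was at 6.27 and 12.2 CPM at stage 10.5 and at 139 and 142 CPM at stage 9, a log2 fold change of -3.93 (*edgeR*, SE 0.45, adjusted p = 0.000179). *btg4.S*, which in mouse recruits the deadenylase to maternal mRNA, was at 15.6 and 16.5 CPM against 144 and 203 CPM. *fbxo43.S* (Emi2, which holds the egg in metaphase II) was at 6.00 and 9.53 CPM at stage 10.5 and at 139 and 162 CPM at stage 9. *ccnb5.L*, a B-type cyclin of the germ line, had the largest fall of the list, to 5.01 and 12 CPM, against 276 and 328 CPM (log2 fold change -5.16, SE 0.72, *edgeR*, adjusted p = 0.000475). The mRNA of *mos*, the kinase that drives meiotic maturation, was at 29.0 and 45.9 CPM at stage 10.5 and at 68.7 and 82.8 CPM at stage 9. Other egg RNAs did not fall, though of the 8 rises of the list only 2 were of at least 2-fold. The zona pellucida genes *zp2.L*, *zp4.L* and *zp4.S* were among the rises, with *zp2.L* at 107 and 118 CPM against 70.1 and 75.4 CPM, while *zpax.L* and *zpd.L* fell. *pum2* and *plk1* gave no fall in either copy.

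Vegetally localised and germ plasm RNAs gave 22 falls (57.9%, against 23.2% of all genes tested) among 38 tested copies. Another 6 rose (15.8%, against 23.3%) and 10 did not pass, with a median log2 fold change of -1.02 over the list. *dnd1.L* (Dead end), a protector of germ cell RNA, was at 7.83 and 10.5 CPM at stage 10.5 and at 93.7 and 88.5 CPM at stage 9, a log2 fold change of -3.32 (*edgeR*, SE 0.40, adjusted p = 0.00024). *bicc1.L*, a maternal repressor of translation, was at 12.49 and 9.62 CPM against 99.5 and 105.03 CPM. *nanos1.L* and *dazl.L*, germ plasm RNAs with roles in repression and activation of translation, fell less, with *nanos1.L* at 13.3 and 23.1 CPM at stage 10.5 and 40.2 and 38.1 CPM at stage 9, and *dazl.L* at 21.7 and 39.6 CPM against 74.9 and 91.3 CPM. *pgat.L* (Xpat) was at 61.5 and 80.9 CPM against 98.6 and 102 CPM and did not pass (adjusted p = 0.0682, *edgeR*). The rises were *ddx4.L*, *tdrd7.L*, *otx1.S*, both copies of *vegt* and *wnt11b.L*. The homeologs *ddx4.S*, at 6.76 and 6.08 CPM against 15.7 and 19.4 CPM, and *otx1.L*, at 30.4 and 42.3 CPM against 77.3 and 97.9 CPM, fell. *wnt11b.L* itself was at 72.0 and 60.5 CPM at stage 10.5 and at 42.0 and 30.1 CPM at stage 9, a log2 fold change of 0.88 (*edgeR*, SE 0.23, adjusted p = 0.0119), which did not pass with library totals or in 2 of the 4 fits that left out 1 +/Z library. Counts per gene do not tell its wild-type copy from its mutant copy.

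Genes with a maternal form and a later paralogue were compared as 9 such families. Of 15 copies of the maternal forms 9 fell (60.0%, against 23.2% of all genes tested), 1 rose and 5 did not pass (median log2 fold change -1.70). Of 15 copies of the later forms 9 rose (60.0%, against 23.3%), 4 fell and 2 did not pass (median 0.84). The cyclin A family had the largest fall of a maternal form: *ccna1.L* was at 42.3 and 60.6 CPM at stage 10.5 and at 810 and 893 CPM at stage 9, a log2 fold change of -4.05 (*edgeR*, SE 0.48, adjusted p = 0.000208). Its later paralogue did not rise. *ccna2.L* was at 535 and 722 CPM against 573 and 509 CPM and did not pass (adjusted p = 0.356, *edgeR*), and *ccna2.S* fell to 184 and 260 CPM, against 459 and 456 CPM. In the Wee1 family, kinases that inhibit Cdk1, *wee2.L* was at 32.5 and 40.6 CPM at stage 10.5 and at 227 and 208 CPM at stage 9, and *wee1.S* at 161 and 155 CPM against 65.9 and 59.4 CPM. The TATA-binding proteins departed from this pattern, since both copies of the somatic *tbp* fell, *tbp.S* to 31.0 and 40.5 CPM against 260 and 293 CPM, along with the oocyte form *tbpl2.L*. Of the oocyte translation factors, *eif4e1b.S* rose, and *ybx2* and *pabpc1l.L* did not pass.

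**Figure D4:**
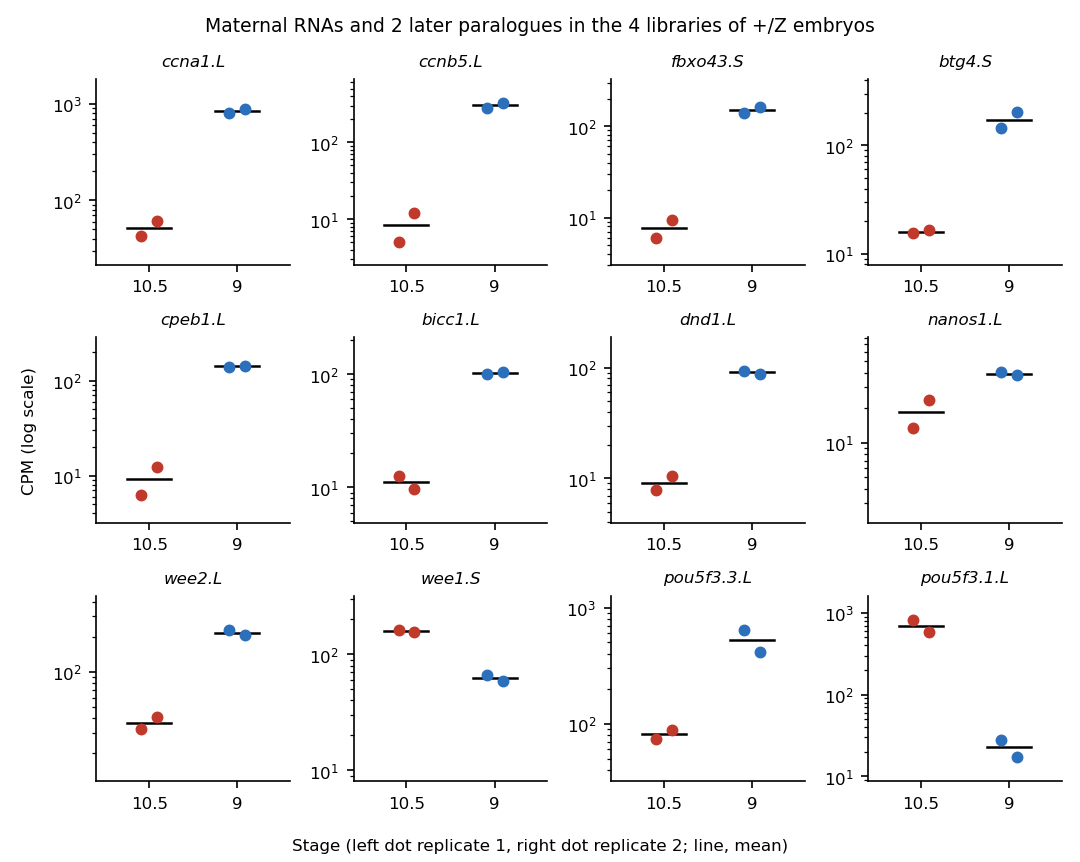
CPM (log-scaled y axis, a separate range per panel) of 10 maternal RNAs and of the later paralogues *wee1.S* and *pou5f3.1.L* in the libraries of +/Z embryos at stage 10.5 (left of each panel) and stage 9 (right). Dots are replicates 1 and 2 and lines are means. The stages do not overlap in any panel, with *ccna1.L* at 42.3 and 60.6 CPM at stage 10.5 and 810 and 893 CPM at stage 9, and *wee1.S* at 161 and 155 CPM at stage 10.5 and 65.9 and 59.4 CPM at stage 9.

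Genes of the cell cycle, its checkpoint and replication gave 14 rises (30.4%, against 23.3% of all genes tested), 17 falls (37%, against 23.2%) and 15 that did not pass among 46 copies (median log2 fold change -0.12, and 0.037 with upper-quartile factors). Of the 7 copies of replication factors, too few to set against these shares, 3 fell and none rose. *cdc7.L*, the kinase that fires origins, was at 4.59 and 5.17 CPM at stage 10.5 and at 25.8 and 34.3 CPM at stage 9, and *recql4.L* and *dbf4b.L* also fell. *dbf4.L*, at 234 and 252 CPM against 218 and 237 CPM, *topbp1.L* and both copies of *ticrr* did not pass (adjusted p from 0.148 to 0.952, *edgeR*). The checkpoint kinase *chek1* fell in both copies, as did *ccnb1* and *ccnb2*. *cdc25a.L*, the phosphatase that drives the early cycles, was at 82.2 and 92.6 CPM at stage 10.5 and at 489 and 441 CPM at stage 9, a log2 fold change of -2.41 (*edgeR*, SE 0.24, adjusted p = 0.000102). The largest rise was that of *ccnb3.S*, at 340 and 284 CPM against 4.06 and 3.40 CPM, a log2 fold change of 6.38 (*edgeR*, SE 0.32, adjusted p = 1.08e-05). *ccne2.L*, a G1/S cyclin, was at 564 and 445 CPM at stage 10.5 and at 83.7 and 61.2 CPM at stage 9.

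Ribosomal protein genes rose almost throughout, in 118 of 123 tested copies (95.9%, against 23.3% of all genes tested), with none lower. Their median log2 fold change was 2.03, against 0.01 for all genes tested. With library totals, 111 rose, around a median of 1.71. *rps4* was at 91.9 and 108 CPM at stage 10.5 and at 9.73 and 12 CPM at stage 9, a log2 fold change of 3.21 (*edgeR*, SE 0.27, adjusted p = 4.76e-05). *rpl26.S* was at 27.2 and 35.5 CPM against 1.71 and 1.6 CPM. Nuclear genes of oxidative phosphorylation gave 52 rises (50%, against 23.3% of all genes tested), 2 falls (1.92%, against 23.2%) and 50 that did not pass among 104 copies (median 0.79). *ndufb5.L*, of complex I, was at 12.8 and 15.9 CPM at stage 10.5 and at 1.61 and 2.33 CPM at stage 9.

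The replicates of stage 10.5 differed along some of these lists. Replicate 1 was lower than replicate 2 over ribosomal protein genes, by a median of -0.43 on the log2 scale, with 4 of 123 copies higher in replicate 1. Over the mesodermal list it was higher by a median of 0.44, with 40 of 52 copies higher in replicate 1, and over the epidermal list by 0.29, with 32 of 48. The median over all genes tested was -0.02. At stage 9 the ribosomal median was 0.02. The part of these replicate differences in the stage change was not tested. Leaving out a stage 10.5 library reuses the other libraries and cannot measure that part.

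The stage changes of homeologs were compared pair by pair. Of 8364 pairs listed, 5644 had both copies tested, 766 only the .L copy and 603 only the .S copy. Both copies passed in 1938 pairs, with 801 in which both rose, 1010 in which both fell and 127 in opposite directions, so 93.4% of these pairs agreed in direction. Over all 5644 pairs, passed or not, the log2 fold changes of the copies had the same sign in 4151 (73.5%). One copy passed in 2016 pairs and neither in 1690. Across genes, the log2 fold changes of .L and .S copies had a Pearson's r of 0.60 and a Spearman's rho of 0.61 over the 5644 pairs, which are not independent replicates and share their libraries and, in part, their reads. The direct test of the difference, *edgeR*'s quasi-likelihood test of the stage change of .L minus that of .S with the library as a block, found 2070 unequal pairs (36.7%) at an adjusted p under 0.05, 1092 with the higher change in .L and 978 in .S. All 127 opposite pairs were among them, which their choice by calls in the same libraries favours. So were 1137 of the pairs with 1 copy past the threshold (56.4%) and 232 of those with neither. Without stage 9 replicate 1 or 2, 1100 and 1106 pairs were unequal. The median absolute difference between copies was 0.60 on the log2 scale. The .L copies held 51.5% and 51.5% of the counts of the tested pairs at stage 10.5 and 51.9% and 51.8% at stage 9.

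**Figure D5:**
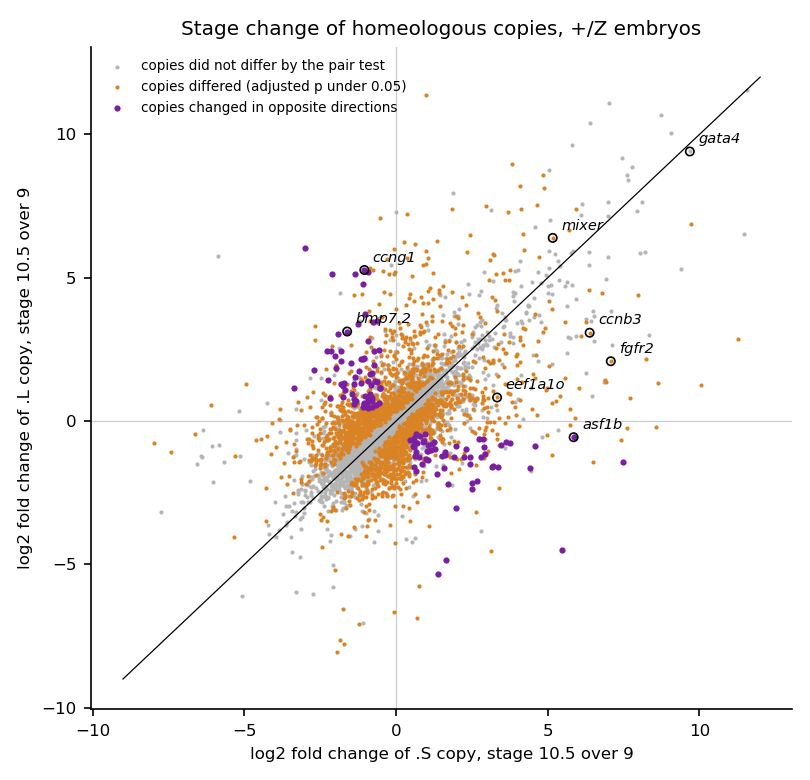
log2 fold change at stage 10.5 over stage 9 in +/Z embryos of the .L copy (y axis) against the .S copy (x axis) for 5644 homeolog pairs, with the line of equal change. Points are pairs, grey where the pair test did not pass, orange for unequal pairs and purple for the 127 pairs whose copies passed in opposite directions, of which *bmp7.2* (3.12 for .L and -1.61 for .S) and *asf1b* (-0.56 and 5.85) are circled.

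In the 114 pairs of the germ-layer lists, both copies rose in 64, both fell in 5 and the copies went opposite ways in 4, with 1 copy past the threshold in 30 and neither in 11. Over all 5644 pairs, both copies rose in 801 (14.2%), both fell in 1010 (17.9%) and 127 were opposite. With 1 copy past the threshold there were 2016 pairs, and with neither 1690 (29.9%). The pair test found 52 of the 114 unequal, against 36.7% of all pairs. The 4 opposite pairs of these lists, too few to set against the share over all pairs, were *bmp7.2*, *sox7*, *myod1* and *otx1*. *bmp7.2.L*, a BMP ligand gene, was at 1107 and 1183 CPM at stage 10.5 and at 131 and 132 CPM at stage 9, while *bmp7.2.S* was at 6.57 and 8.89 CPM against 21.2 and 26.1 CPM. The difference of their stage changes was 4.74 on the log2 scale (*edgeR*, SE 0.35, adjusted p = 0.000116), and with the counts of both copies summed the gene rose by 2.87. In *sox7* the copies differed by -9.95 (*edgeR*, SE 1.12, adjusted p = 0.000513).

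Outside the lists, the opposite pairs with the smallest p were *asf1b*, a histone chaperone, *ccng1*, a cyclin induced by p53, *idh2*, the mitochondrial isocitrate dehydrogenase, and *rbis*, a ribosome biogenesis factor. *asf1b.L* was at 23.4 and 20.4 CPM at stage 10.5 and at 31.0 and 33.8 CPM at stage 9, while *asf1b.S* was at 12.38 and 22.6 CPM against 0.258 and 0.344 CPM. The difference of the copies was -6.36 (*edgeR*, SE 0.43, adjusted p = 8.93e-05), although the fall of *asf1b.L* alone was small (log2 fold change -0.56, adjusted p = 0.0399, *edgeR*) and did not pass in most alternative fits. *ccng1.L* was at 141 and 147 CPM at stage 10.5 and at 5.29 and 2.1 CPM at stage 9, while *ccng1.S* was at 57.5 and 73.7 CPM against 123 and 147 CPM. The pair with the smallest p of any direction was *eef1a1o*, an elongation factor 1α gene of oocytes by name, in which *eef1a1o.S* rose to 3679 and 4598 CPM, against 450 and 373 CPM, and *eef1a1o.L* to 239 and 276 CPM, against 156 and 136 CPM (difference of .L minus .S -2.51, SE 0.08, *edgeR*, adjusted p = 1.36e-06). *fgfr2.S*, an FGF receptor copy, was at 53.5 and 32.7 CPM at stage 10.5 and at 0.29 and 0.34 CPM at stage 9, against 51.7 and 23.9 CPM and 9.28 and 8.51 CPM for *fgfr2.L*. *ccnb3*, *tubb4b* and *rnd1* were the other pairs with the smallest p, each with both copies higher at stage 10.5 and log2 differences of -3.30, 3.23 and 2.58.

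The same stage comparison in M/Z embryos gave 8219 genes past the threshold (32.3%). Of the 5928 genes that rose in +/Z embryos, 5682 had a positive log2 fold change in M/Z embryos, and of the 5905 that fell, 5632 had a negative one. In M/Z embryos 3605 of these risers and 3390 of these fallers also passed in that direction. The share of equal signs over all genes tested is not given here. The median change of the risers was 1.72 in +/Z and 1.07 in M/Z embryos, and that of the fallers -1.37 and -0.90, values that the choice of genes by their +/Z change favours. The difference between the stage changes, tested directly, passed for 12 genes (0.0472%) at an adjusted p under 0.05 and for 2844 at an unadjusted p under 0.05 (11.2%, by *edgeR*). None of the 274 germ-layer copies was among the 12, with 73 at an unadjusted p under 0.05 (26.6%), and *DESeq2* called 278 genes over the whole table. Over the other lists the share at an unadjusted p under 0.05 (*edgeR*) ran from 7.69% for oxidative phosphorylation to 43.9% for ribosomal protein genes. Without either +/Z stage 9 replicate no gene passed in *edgeR*, and without stage 10.5 replicate 1 or 2 47 and 21 genes did. The mother and the genotype differed together between the crosses and cannot be told apart.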

How the data were processed

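RNA was sequenced from pools of 3 embryos with a stranded mRNA kit. With the CSBB 3.0 pipeline, the authors aligned the paired-end reads by *bowtie2* against genome release 9.2 of *X. laevis* and estimated counts with *RSEM*, version 1.3.0 per the submitters' processing notes. The deposited values are expected counts per gene, all whole numbers, not normalised. The annotation and strand setting are not given in the sources used here. Genes were filtered with filterByExpr and tested with *edgeR* 4.0.16 (R 4.3.3), using TMM factors and the quasi-likelihood test over all 4 groups, which share 1 estimate of the spread, with Benjamini-Hochberg adjustment over all genes tested and a threshold of 0.05. CPM use TMM-scaled library sizes. Homeolog pairs were paired by symbol and fitted with the library as a block. *DESeq2* 1.42.0 and limma 3.58.1 served as alternatives. The tests were checked on simulated counts.

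Other alternatives were RLE, upper-quartile and total scaling, filters, +/Z libraries only, a replicate block, a 1.5-fold minimum, summed copies and leaving out each replicate. The members and gene lists were chosen with earlier results of these data known, and some genes stand in several lists. Named genes were, per list, the 2 symbols with the smallest p whose stages did not overlap, a fixed set (*gs17*, *vegt*, *wnt11b*, *nodal5*, *nodal6*, *sia1*, *gsc*, *chrd*, *tbxt*, *mixer*, *sox17a*, *ventx2.1*, *sox3*, *gmnn*, *nanos1*, *dazl*, *mos*, *ccna1*, *ccna2* and the *pou5f3* genes), the 5 rises and 5 falls with the smallest p among genes of at least 2-fold change and 50 CPM, 5 opposite pairs and 5 pairs of any direction, and the 3 genes in each direction that differed most clearly from M/Z. Other genes named are examples chosen after their values were seen. Of 15545 LOC identifiers, 12362 matched a RefSeq table of assembly version 10.1 and 3698 received a symbol, and no coordinates are given because the build differs. Promoter sequences were not analysed here. A few members of the lists are counted but not reported by name here.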

Additional observations from a re-analysis of the deposited data

Results flagged for a closer look

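The stage change differed between +/Z and M/Z embryos for each of 6 genes, the 3 with the smallest p in each direction, when the difference itself was tested in *edgeR*. *st3gal1.S*, a sialyltransferase, was at 11.8 and 8.03 CPM at stage 10.5 and at 0.387 and 0.420 CPM at stage 9 in +/Z embryos. Its log2 fold change was 4.61 in +/Z and -0.67 in M/Z embryos, a difference of 5.28 (standard error 0.44, adjusted p = 0.00645). *cdk15.L*, a cyclin-dependent kinase gene, was at 21.3 and 11.4 CPM at stage 10.5 and at 0.226 and 0.267 CPM at stage 9, and its changes of 6.04 in +/Z and 0.31 in M/Z embryos differed by 5.73 (standard error 0.50, adjusted p = 0.00645, *edgeR*). *hsp90aa1.1.L*, a cytosolic chaperone, rose by 4.59 in +/Z and had a change of 0.84 in M/Z embryos, a difference of 3.75 (standard error 0.42, adjusted p = 0.0204, *edgeR*). In the other direction, *atp6a1* was at 17.4 and 15.7 CPM at stage 10.5 and at 10.5 and 9.16 CPM at stage 9 in +/Z embryos and did not pass there, with a change of 0.75 in +/Z and 6.29 in M/Z embryos, a difference of -5.54 (standard error 0.50, adjusted p = 0.00645, *edgeR*). LOC108719533 had changes of 1.48 in +/Z and 3.67 in M/Z embryos, a difference of -2.19 (standard error 0.23, adjusted p = 0.0152, *edgeR*), and XB22063314.L 1.91 and 7.37, a difference of -5.45 (standard error 0.60, adjusted p = 0.0204, *edgeR*). None of the 6 passed without either +/Z stage 9 replicate, where adjusted p lay between 0.0667 and 0.152 (*edgeR*), while the differences were 90.9% to 111% of those above.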

How the results depend on the processing

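The number of genes changed stayed within 1.5 times of 11833 under other scalings, filters, *DESeq2* (11736), +/Z libraries only (10885) and the replicate block (11623, with 8426 genes of at least 2-fold, 1974 unequal pairs and 9 genes differing from M/Z), but fell to 7884 without +/Z stage 9 replicate 1 and 7625 without replicate 2, where a lone library is assumed to vary like the other groups (leave-one-out range 7625 to 11043). Unequal pairs fell to 1100 and 1106 without these libraries (range 1100 to 1985), the cause not tested. No source used here says that a replicate number marks a shared mother or day, so the numbers were not taken as a pairing. The deviations of equally numbered +/Z pools correlated across genes at 0.15 (-0.24 for M/Z pools), and whether pools share a mother is not known. The genes differing from M/Z numbered 915 with no filter, 6 with at least 10 counts in every library, 278 in *DESeq2* and 0 to 47 with a +/Z replicate left out (0 without either stage 9 replicate, 47 and 21 without stage 10.5 replicates 1 and 2), the cause not tested. With library totals the shares of counts were 38.1% and 14.9% for genes that rose and 16.8% and 40.0% for those that fell, at stages 10.5 and 9. With upper-quartile factors the list medians of later organ genes (0.023) and of cell-cycle and replication genes (0.037) reversed. Summing copies reversed *bmp7.2.S* (2.87), *asf1b.L* (0.24), *ccng1.S* (0.57), *idh2.S* (0.33) and *rbis.L* (0.25), since the sum follows the other copy. Of 108 named copies, 100 passed, and 84 kept their direction and side of the threshold under each of the 13 settings that gave them a value (14 copies were not in the fit with at least 10 counts in every library), 17 lost the call in at least 1 and 5 gained it. Genes near the floor of 3 counts are limited by depth.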

Other observations

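Later organ markers that were tested numbered 9, with 3 rises, 3 falls and 3 that did not pass, which is 33.3% each way against 23.3% and 23.2% of all genes tested, on few copies. *myh6.L*, a heart myosin, had 42 and 40 counts at stage 10.5 and 0 and 0 at stage 9, at least 32.4-fold higher. *elavl3.L*, an RNA-binding protein of early neurons, had 239 and 48 counts at stage 10.5 and 5 and 2 at stage 9, so its stage 10.5 replicates differed widely while both lay above stage 9. The replicates of *lin28a.S* also differed, at 61.2 and 6.80 CPM at stage 10.5 and 2.58 and 1.15 CPM at stage 9.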
